A study of Mus musculus with 9 samples.

Results

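Polyadenylated RNA of adult mouse brain was examined for 7 genes of the olfactory bulb: Cdhr1, Doc2g, Eomes, Tbx21, Nmb and Shisa3, which mark its projection neurons, and Sp8, which marks its interneurons. They were taken by symbol from a list of names, out of 54446 genes counted, and were chosen with earlier results of these data known. The 9 libraries came from male mice 3 to 4 months old, 3 each labelled as wild type (B6N), as Tfap2a+/- and as Tfap2b+/-, with no treatment named. Tfap2a and Tfap2b encode AP-2 transcription factors of the neural crest and the developing nervous system, and +/- in the labels stands for 1 altered copy. Pieces of 20 to 80 mg were extracted, but neither the region of the brain that was cut, nor the construction of the alleles, nor whether each library was 1 animal is given in the sources used here. The p-values therefore rest on the spread among libraries of a label, part of which may be technical.

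The olfactory bulb is the first relay of smell in the brain. Axons of sensory neurons of the nose end there in glomeruli on the dendrites of mitral and tufted cells, the glutamatergic projection neurons that carry the signal to the olfactory cortex. Granule and periglomerular interneurons inhibit these cells, and neuroblasts that migrate from the subventricular zone renew the interneurons throughout adult life. The T-box transcription factors Eomes and Tbx21 are known from mitral and tufted cells, but neither is limited to them. Both are also factors of T cells and natural killer cells.

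The promoters of 4 of the genes are shown because their transcripts stood together at their highest level in a single library: the T-box pair, Cdhr1 as the most abundant projection neuron gene, and Sp8 as the interneuron gene. The sequences are RefSeq windows on GRCm38.p6, running from 250 bases before to 50 bases after a transcription start, 5′ to 3′ on the strand of the gene. Capitals mark motif matches on either strand, namely the T-box core AGGTGTG or its reverse complement in Sp8 and the GC box GGGCGG in Tbx21. The windows are chr9:118477939-118478238 (+) for Eomes, chr11:97115282-97115581 (-) for Tbx21, chr14:37098298-37098597 (-) for Cdhr1 and chr12:118846079-118846378 (+) for the first of 3 windows of Sp8.
Eomes: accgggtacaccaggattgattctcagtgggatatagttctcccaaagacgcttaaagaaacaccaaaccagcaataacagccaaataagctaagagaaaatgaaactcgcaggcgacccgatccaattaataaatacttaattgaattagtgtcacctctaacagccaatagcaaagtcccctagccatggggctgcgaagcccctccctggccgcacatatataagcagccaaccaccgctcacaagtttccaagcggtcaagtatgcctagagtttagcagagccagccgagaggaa
Tbx21: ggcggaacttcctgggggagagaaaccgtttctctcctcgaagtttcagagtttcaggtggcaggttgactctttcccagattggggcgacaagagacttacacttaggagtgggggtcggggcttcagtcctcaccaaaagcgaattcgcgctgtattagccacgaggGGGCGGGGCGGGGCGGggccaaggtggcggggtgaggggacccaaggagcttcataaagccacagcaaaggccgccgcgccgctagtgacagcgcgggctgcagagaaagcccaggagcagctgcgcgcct
Cdhr1: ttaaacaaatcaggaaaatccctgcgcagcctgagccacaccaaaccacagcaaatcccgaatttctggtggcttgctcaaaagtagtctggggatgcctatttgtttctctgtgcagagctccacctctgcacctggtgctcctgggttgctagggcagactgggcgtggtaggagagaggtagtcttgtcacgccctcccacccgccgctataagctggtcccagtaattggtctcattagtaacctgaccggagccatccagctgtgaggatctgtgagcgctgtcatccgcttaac
Sp8: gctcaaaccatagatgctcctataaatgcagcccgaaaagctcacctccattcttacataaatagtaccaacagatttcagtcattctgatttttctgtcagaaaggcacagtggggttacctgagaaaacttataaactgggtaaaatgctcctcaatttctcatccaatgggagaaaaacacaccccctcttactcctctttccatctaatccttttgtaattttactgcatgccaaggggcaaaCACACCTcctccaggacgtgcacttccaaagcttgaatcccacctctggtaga

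All 7 genes had at least 1 window among the 32851 windows of 300 bases. The full T-box letters AGGTGTGA, found in 1.28% of all windows, were in no window of the 7 genes, and the core AGGTGTG, found in 5.84%, was in 2 of the 3 Sp8 windows, at positions -3 and 9 counted from the start base as 0. GGGCGG, found in 35.7% of windows, occurred as 3 overlapping copies at -81, -76 and -71 in Tbx21, 3 times in Nmb, 2 times in Shisa3 and once in the second Sp8 window. The homeobox letters TAATTA, found in 5.29% of windows, were in the third Sp8 window at -188. The windows of Eomes, Cdhr1 and Doc2g held none of these letters. GC content ran from 43.0% in the first Sp8 window to 70.0% in Shisa3, around a median of 52.7% over all windows. These matches describe letters in the windows and no binding was measured.

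Between 21946800 and 29214975 fragments per library were counted in genes, and a count of 3, taken as the floor of detection for a gene at 0, corresponded to 0.101 to 0.141 CPM (counts relative to library size, scaled by the trimmed mean of M values, TMM). Intervals and floors cover counting error alone and leave out differences between libraries. Duplicates from PCR were not marked, so the intervals may be too narrow even for counting error. The targeted genes were measured first. Libraries 1 to 3 of wild type had 0.610, 0.263 and 0.734 CPM of Tfap2a, those of Tfap2a+/- had 0.445, 0.223 and 0.461 CPM, and those labelled Tfap2b+/- had 1.59, 0.674 and 0.113 CPM. For Tfap2b the values in the same order were 2.25, 0.715 and 14.8 CPM, 1.88, 2.54 and 3.96 CPM, and 32.9, 8.90 and 5.81 CPM. Tfap2b was thus not lower under its own label, and every direction below that involves this group refers to libraries labelled so. The libraries also stood apart in genes of other regions. The choroid plexus list summed to 3096 CPM in wild type library 2 and to 20.96 to 860 CPM elsewhere, the hindbrain list to 66.7 CPM in library 1 labelled Tfap2b+/- and to at most 2.23 CPM elsewhere, and the striatal list to 2188 and 1972 CPM in Tfap2a+/- libraries 1 and 2 and to at most 806 CPM elsewhere.

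Each of the 7 genes reached its highest level in library 3 labelled Tfap2b+/-. That library held the highest value of 11.9% of the 17355 genes tested, against 21.7% for library 1 of the same label. Summed over the 7 genes it had 153.9 CPM, and the other 8 libraries had 6.90 to 25.3 CPM. The 7 genes were chosen with earlier results of these data known, so the share of 11.9% is no test of their joint peak. In tissue RNA, fewer cells of a type and less RNA per cell cannot be told apart.

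**Figure D1:**
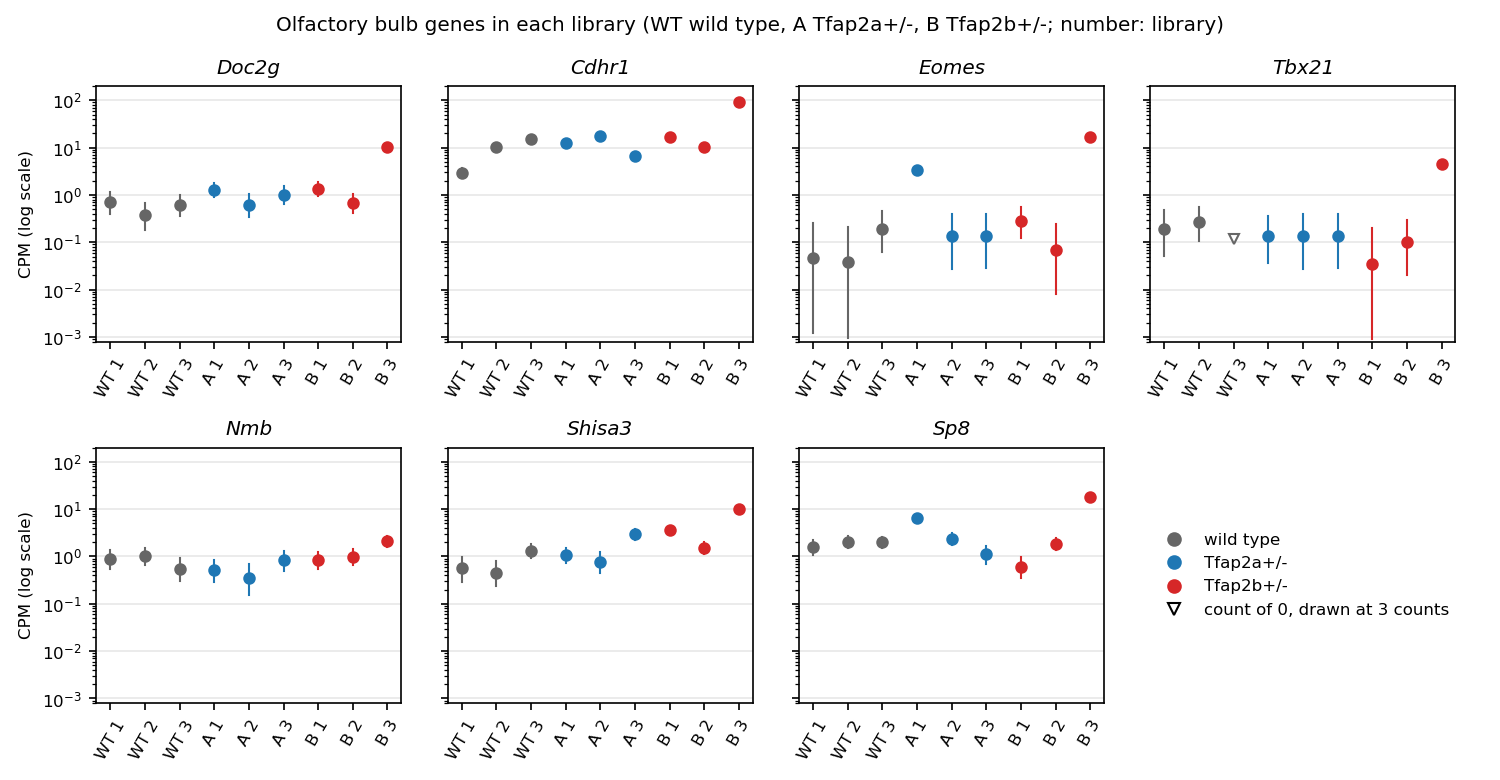
TMM-scaled CPM (log axis) of the 7 genes in each library, with the exact 95% Poisson interval of the count as a bar; an open triangle marks a count of 0, drawn at the level of 3 counts. Library 3 labelled Tfap2b+/- (B 3) is the highest point in every panel, and Tfap2a+/- library 1 (A 1) is second for Eomes and Sp8.

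Cdhr1 (chromosome 14, 37077857 to 37098347, minus strand, GRCm38) encodes a cadherin-related adhesion protein of mitral and tufted cells that is also known from photoreceptors. Its level was 2.96, 10.2 and 14.9 in wild type, 12.6, 17.8 and 6.77 in Tfap2a+/-, and 16.7, 10.2 and 92.4 in those labelled Tfap2b+/- (CPM, libraries 1 to 3 in order). Cdhr1 was detected everywhere, lowest in wild type library 1, and library 3 labelled Tfap2b+/- lay 5.18-fold above the next library, Tfap2a+/- library 2. The photoreceptor and pineal list, which Cdhr1 could also reflect, summed to 2.15 to 3.67 CPM in the 9 libraries, with 3.17 CPM in library 3 labelled Tfap2b+/-. Its member Gngt1 was at 0 throughout. Its 2 tested genes, Sag and Aanat, had 2.00 CPM within 0.988 to 2.49 CPM and 0.943 CPM within 0.312 to 0.986 CPM there. Their mean log2 CPM, each gene centred on its mean over the 9 libraries, was highest there, at 0.409 beside 0.396 in wild type library 1.

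Doc2g (chromosome 19, 4003313 to 4007005, plus strand) encodes a C2-domain protein of the double C2 family and is known as a mitral and tufted cell marker. It stood at 0.704, 0.376 and 0.618 in wild type, 1.27, 0.624 and 1.01 in Tfap2a+/-, and 1.34, 0.674 and 10.1 in those labelled Tfap2b+/- (CPM, libraries 1 to 3 in order). The last value was 7.54-fold above library 1 of that label, and the other 8 libraries overlapped across genotypes. In GENCODE M21, 63.5% of its 3035 exon bases are shared with Gm49405 on the same strand, and reads there are not counted for either gene, so the level of Doc2g is understated. Gm49405 itself had 0.527 to 1.34 CPM in the 9 libraries and 0.867 CPM in library 3 labelled Tfap2b+/-.

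The T-box genes were near or below the floor in most libraries. Eomes (chromosome 9, 118478212 to 118486132, plus strand) had 1, 1 and 5 counts in wild type, 99, 3 and 3 in Tfap2a+/-, and 8, 2 and 437 in the libraries labelled Tfap2b+/-, which corresponds to 3.39 CPM in Tfap2a+/- library 1, 16.5 CPM in library 3 labelled Tfap2b+/- and at most 0.282 CPM elsewhere. Tbx21 (chromosome 11, 97098071 to 97115331, minus strand) had 4, 7 and 0 counts in wild type, 4, 3 and 3 in Tfap2a+/-, and 1, 3 and 121 in the libraries labelled Tfap2b+/-, or 4.56 CPM in the last library and at most 0.263 CPM elsewhere. Eomes was therefore high in 2 libraries and Tbx21 in 1. Per Tbx21 read there were 3.61 Eomes reads in library 3 labelled Tfap2b+/- (exact 95% interval 2.95 to 4.45) and 24.8 in Tfap2a+/- library 1 (9.37 to 92.6), and these intervals did not overlap. The T and NK cell list summed to 0.0353 to 0.502 CPM, with 0.339 CPM in library 3 labelled Tfap2b+/-, none of its 9 genes passed the filter on low counts, and Ifng was at 0 in every library.

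The steps from the highest library to the next were smallest for Nmb and Shisa3, at 2.04-fold and 2.70-fold. Nmb (chromosome 7, 80902227 to 80905076, minus strand), the precursor of the peptide neuromedin B of tufted cells, stood at 0.892, 1.02 and 0.541 in wild type, 0.514, 0.356 and 0.829 in Tfap2a+/-, and 0.847, 0.977 and 2.07 in those labelled Tfap2b+/- (CPM, libraries 1 to 3 in order). Its highest library was 2.04-fold above the next, the smallest such step among the 7 genes. Of its exon bases 20.6% are shared with Sec11a on the same strand, which itself had 13.6 to 15.6 CPM in the 9 libraries. Shisa3 (chromosome 5, 67607882 to 67623552, plus strand) encodes a membrane protein of a family that dampens Wnt and FGF signalling. It stood at 0.564, 0.452 and 1.31 in wild type, 1.06, 0.757 and 2.95 in Tfap2a+/-, and 3.67, 1.52 and 9.92 in those labelled Tfap2b+/- (CPM, libraries 1 to 3 in order). All 3 libraries of that label lay above all 3 of wild type for Shisa3, while Tfap2a+/- library 3 lay among them.

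Sp8 (chromosome 12, 118846329 to 118852576, plus strand) encodes a zinc finger factor of bulb interneurons and their neuroblasts that is also present in other inhibitory interneurons of the forebrain. It stood at 1.55, 2.03 and 2.01 in wild type, 6.37, 2.36 and 1.11 in Tfap2a+/-, and 0.600, 1.85 and 18.4 in those labelled Tfap2b+/- (CPM, libraries 1 to 3 in order). That label held both the lowest and the highest of the 9 values. Sp8 also had no fixed proportion to Cdhr1. The ratio of Sp8 to Cdhr1 counts was 0.199 (0.180 to 0.220) in library 3 labelled Tfap2b+/-, 0.505 (0.421 to 0.605) in Tfap2a+/- library 1 and 0.0359 (0.0207 to 0.0580) in library 1 labelled Tfap2b+/-. In Tfap2a+/- library 1, Sp8 and Eomes were both the second highest of 9, whereas Cdhr1 and Doc2g lay within the range of the other libraries there.

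Scaled to exon length, the order of levels in library 3 labelled Tfap2b+/- was Cdhr1 at 21.3 CPM per kb, Sp8 at 4.04, Eomes at 3.97, Doc2g at 3.33, Nmb at 2.62, Shisa3 at 2.09 and Tbx21 at 1.83. Counted over its 1109 unshared exon bases, Doc2g came to 9.11 CPM per kb, next below Cdhr1. Over 630 unshared bases Nmb came to 3.29 CPM per kb. Over all exon bases, Cdhr1 was the highest per kb of the 7 genes in every library except wild type library 1, where Nmb had 1.13 and Cdhr1 0.683 CPM per kb.

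The comparison of genotypes asked whether these genes differed with the labelled loss of 1 Tfap2 copy. Doc2g, Cdhr1, Nmb, Shisa3 and Sp8 passed the filter on low counts and were tested; Eomes and Tbx21 did not. No gene of the 17355 passed an adjusted p of 0.05 in edgeR's quasi-likelihood test in any comparison (0.0% called in each), so none of the 5 did. An unadjusted edgeR p under 0.05 was reached by 666 genes (3.84%) for Tfap2a+/- against wild type, 1841 (10.6%) for Tfap2b+/- against wild type and 1997 (11.5%) for Tfap2b+/- against Tfap2a+/-. DESeq2 called 30 (0.173%), 175 (1.01%) and 228 (1.31%). Fragments counted for no gene made up 19.3% to 19.7% of the libraries labelled Tfap2b+/- and 15.5% to 17.8% of the others. This difference goes with the label, and its part in the comparisons was not tested.

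Against wild type, mean levels in the libraries labelled Tfap2b+/- were 5.04 ± 4.36 against 0.776 ± 0.468 CPM for Shisa3, 4.04 ± 5.26 against 0.566 ± 0.170 CPM for Doc2g, 39.8 ± 45.7 against 9.33 ± 6.0 CPM for Cdhr1, 6.95 ± 9.94 against 1.86 ± 0.272 CPM for Sp8 and 1.30 ± 0.674 against 0.816 ± 0.247 CPM for Nmb (SD, n = 3 each). The SD exceeded the mean in this group for Doc2g, Cdhr1 and Sp8. Fitted log2 folds were 2.68 ± 0.79 (SE) for Shisa3, 2.83 ± 0.94 for Doc2g, 2.08 ± 0.86 for Cdhr1, 1.89 ± 1.10 for Sp8 and 0.67 ± 0.45 for Nmb. Their median of 2.08 stood beside -0.0012 over all genes tested, and their adjusted p-values in edgeR were 0.366, 0.400, 0.463, 0.547 and 0.593. Shisa3, Doc2g and Cdhr1 had unadjusted edgeR p-values of 0.0081, 0.015 and 0.039. The groups did not overlap for Shisa3 alone, where 8.84% of all genes tested were higher without overlap and 7.63% lower, and DESeq2 called Shisa3 alone of the 5, with a log2 fold of 2.69 and an adjusted p of 0.037.

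These differences rested largely on library 3 labelled Tfap2b+/-. Without it the log2 folds against wild type were 0.83 ± 0.46 for Doc2g, 0.52 ± 0.60 for Cdhr1, 0.16 ± 0.43 for Nmb and -0.60 ± 0.73 for Sp8, the last with the opposite sign, and their median with Shisa3 was 0.52. Shisa3 stayed at 1.72 ± 0.69 (95% interval 0.14 to 3.31), with an adjusted edgeR p of 0.295. That fit keeps 2 libraries in the group and pools the spread of all groups.

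Tfap2a+/- against wild type gave log2 folds of 1.01 ± 0.79 for Shisa3, 0.82 ± 1.09 for Sp8, 0.79 ± 0.95 for Doc2g, 0.40 ± 0.85 for Cdhr1 and -0.53 ± 0.48 for Nmb, each with an adjusted edgeR p of 0.999. Group means in Tfap2a+/- were 1.59 ± 1.19 CPM for Shisa3, 3.28 ± 2.75 for Sp8, 0.968 ± 0.324 for Doc2g, 12.4 ± 5.53 for Cdhr1 and 0.566 ± 0.241 for Nmb, and every one of these groups overlapped with wild type. Of all genes tested, 4.85% were higher without overlap and 4.32% lower. The 95% intervals were wide, from -1.38 to 2.95 for Doc2g and from -1.52 to 2.32 for Cdhr1. The positive value for Sp8 came from Tfap2a+/- library 1, without which it was -0.10.

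Tfap2b+/- against Tfap2a+/- gave 2.04 ± 0.89 for Doc2g, 1.68 ± 0.84 for Cdhr1, 1.67 ± 0.75 for Shisa3, 1.19 ± 0.47 for Nmb and 1.07 ± 1.06 for Sp8 on the log2 scale, with adjusted edgeR p-values of 0.406 to 0.705. Nmb did not overlap between these groups, with all 3 libraries labelled Tfap2b+/- above the 3 of Tfap2a+/-, where 9.2% of genes tested were apart in that direction and 8.03% in the other. Without library 3 the folds were 0.045 for Doc2g, 0.12 for Cdhr1, 0.71 for Shisa3, 0.69 for Nmb and -1.43 for Sp8. The 3 comparisons share groups and are not independent of each other.

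With all 9 libraries, Eomes and Tbx21 could be fitted only without the filter, and their adjusted edgeR p-values were then 0.507 and 0.614 for Tfap2b+/- against wild type, 0.929 and 1.0 for Tfap2a+/- against wild type, and 0.737 and 0.516 for Tfap2b+/- against Tfap2a+/-. Group means of Eomes were 0.0926 ± 0.0872 CPM in wild type, 1.22 ± 1.88 in Tfap2a+/- and 5.61 ± 9.41 in the libraries labelled Tfap2b+/-, and those of Tbx21 were 0.150 ± 0.136, 0.136 ± 0.00235 and 1.57 ± 2.6 CPM (SD, n = 3 each). The groups of both genes overlapped in all 3 comparisons. Eomes passed the filter in 7 of the fits that left out 1 library, where its adjusted edgeR p-values ran from 0.466 to 1.0 over the 3 comparisons.

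**Figure D2:**
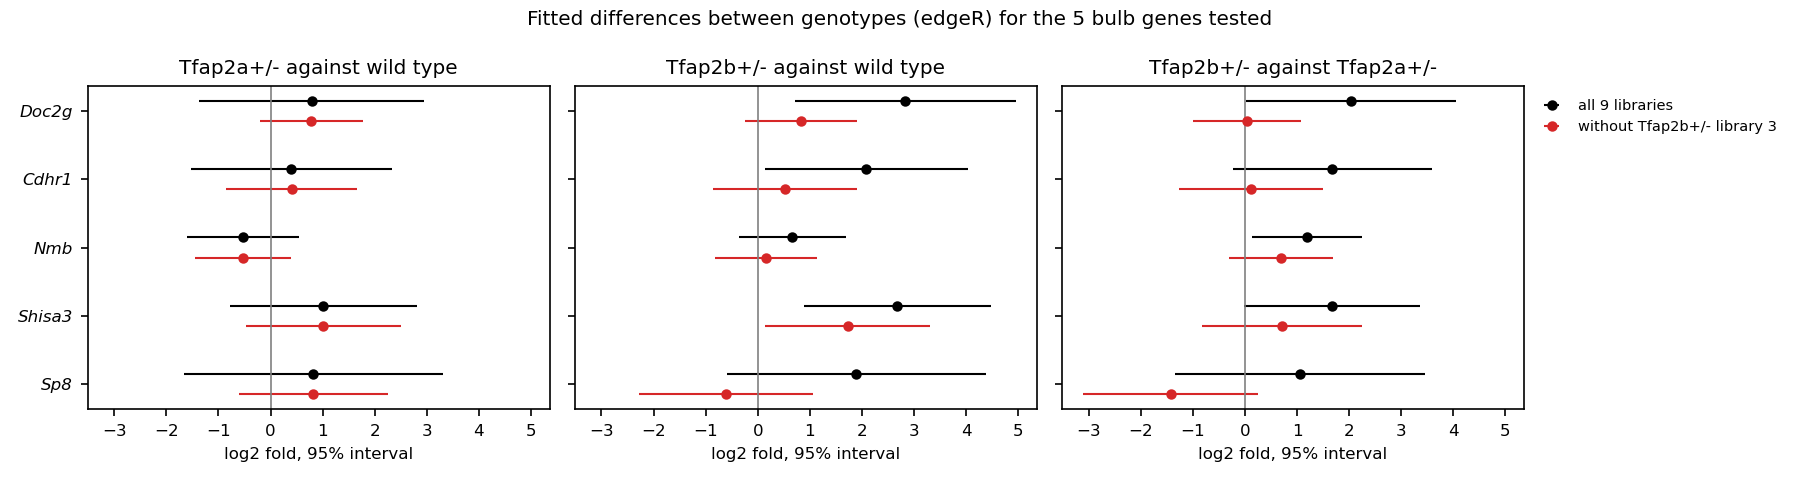
Fitted log2 fold (edgeR) with its 95% interval for the 5 genes tested in each comparison of genotypes, with all 9 libraries (black) and without library 3 labelled Tfap2b+/- (red). In the middle panel the red points of Doc2g, Cdhr1, Nmb and Sp8 lie at 0.83, 0.52, 0.16 and -0.60, while Shisa3 stays at 1.72.

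The spread within genotypes was large for these genes. The SD of log2 CPM within groups, with a median of 0.22 over all genes tested, was 1.58 for Sp8, 1.25 for Cdhr1, 1.19 for Doc2g, 1.04 for Shisa3 and 0.55 for Nmb, which placed them at the 99.3rd, 98.4th, 98.1st, 97.2nd and 85.8th percentile.

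Other genes of the bulb, taken from lists of known markers, were then placed beside the 7. A score per library was formed as the mean over the genes of a list that passed the filter of log2 CPM minus the mean of the gene over the 9 libraries. For the 5 tested genes it was 2.56 in library 3 labelled Tfap2b+/- and -0.89 to 0.10 in the other libraries. The interneuron list was also highest there, at 1.35 against -0.55 to 0.54, and 11 of its 15 genes had their highest level in that library. None of the 15 was called between genotypes. For Tfap2b+/- against wild type 13 of 15 were higher with a median log2 fold of 0.31, and without library 3 only 4 of 15 were, with a median of -0.32.

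Among interneuron genes, Th, the rate-limiting enzyme of dopamine synthesis in periglomerular cells, had 17.6 CPM in library 3 labelled Tfap2b+/-, 11.6 CPM in library 1 of that label and 0.645 to 3.97 CPM elsewhere. Th is also the marker of midbrain dopamine neurons. Library 1 was the one with the hindbrain genes. Scgn, a calcium sensor of bulb interneurons, had 4.79 CPM in library 3 and 0.0446 to 0.640 CPM in the other 8. Meis2, a homeobox factor of granule cells and striatum, had 298.9 CPM in library 3 but also 237.0 and 234.4 CPM in Tfap2a+/- libraries 1 and 2, and 76.4 to 123.2 CPM in the rest. Tshz1, a zinc finger factor that bulb interneurons need, had 95.3 CPM against 33.4 to 57.3 CPM. Synpr, a synaptic vesicle protein, had 158.3 CPM against 55.6 to 151.9 CPM. Etv1 was not highest there, at 105.8 CPM within a range of 66.0 to 148.0 CPM. Scgn thus lay 7.49-fold above its next library, Tshz1 1.66-fold, Th 1.52-fold and Synpr 1.04-fold. Th and Scgn were chosen after their values were seen.

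The other mitral and tufted cell genes did not follow. Their score was -0.055 in library 3 labelled Tfap2b+/- and 1.38 in library 1 of that label, and 2 of the 12 tested genes were highest in the former and 6 in the latter. Tbr1, the T-box factor of mitral cells and of deep cortical layers, had 162.3 CPM in library 3 within 54.8 to 207.5 CPM. Slc17a6, the vesicular glutamate transporter of mitral cells, thalamus and brainstem, had 23.4 CPM there and 17.4 to 324.4 CPM elsewhere, with the peak in library 1 labelled Tfap2b+/-. Ntng1, a netrin relative, had 34.1 CPM within 23.7 to 121.1 CPM. Reln, an extracellular glycoprotein of mitral cells and cortical interneurons, was highest in library 3 at 158.5 CPM, 1.22-fold above the next. Most of these genes are expressed in several brain regions. For Tfap2b+/- against wild type 9 of the 12 were higher, with a median log2 fold of 0.99, and without library 3 again 9 of 12, with 1.26. None was called.

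**Figure D3:**
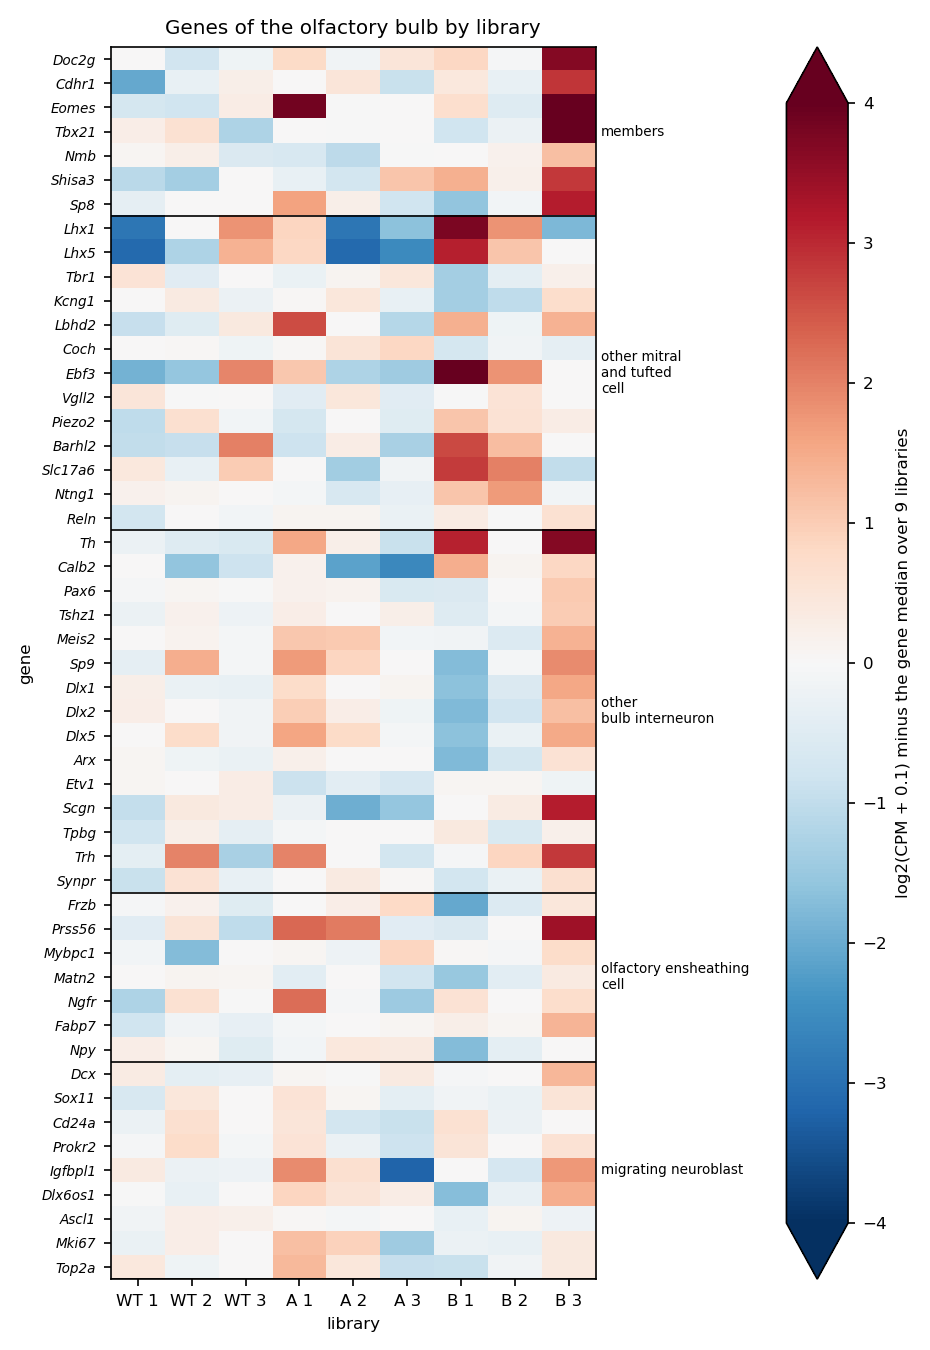
Level of each bulb gene in each library as log2(CPM + 0.1) minus the median of that gene over 9 libraries, with genes in rows by list and libraries in columns; colours end at 4 and -4, and values beyond take the end colour. The column of library 3 labelled Tfap2b+/- (B 3) is red for all 7 genes at the top and for most interneuron genes, while Lhx1, Lhx5 and Ebf3, named here for their values, and Slc17a6 peak in library 1 of that label (B 1).

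Genes of sensory axons, ensheathing glia and neuroblasts were measured as further parts of the bulb. Omp, the marker protein of mature olfactory sensory neurons, had 5.24 CPM (139 counts) in library 3 labelled Tfap2b+/- and 0.0461 to 0.386 CPM in the other 8. S100a5, a calcium-binding protein of the same neurons, had 3.85 CPM (102 counts) there, 1 count in wild type library 2 and 0 counts in the other 7. Omp and S100a5 were singled out after their values were seen. The 4 most abundant genes of that list, Adcy3, Gng13, Ano2 and Gng8, did not have their peak there, with 62.9, 13.9, 2.26 and 0.528 CPM, and the score of the 6 tested genes was 0.17, below 0.59 in wild type library 2.

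The ensheathing glia list scored 0.996 in library 3 labelled Tfap2b+/- and -0.75 to 0.56 elsewhere, with 3 of 7 genes highest there. Fabp7, a brain fatty acid binding protein, had 40.8 CPM against 9.25 to 19.0 CPM, and Matn2, a matrix protein, had 49.4 CPM against 13.4 to 41.7 CPM. Npy, at 36.1 CPM, lay within the range of the other libraries, and Frzb, at 23.0 CPM, lay below the 29.1 CPM of Tfap2a+/- library 3. The neuroblast list scored 0.64 in library 3, below 0.73 in Tfap2a+/- library 1, where 4 of its 9 genes were highest. Dcx, a microtubule protein of migrating neuroblasts, had 86.8 CPM in library 3 and 26.4 to 43.9 CPM in the other 8. Dlx6os1 had 47.4 CPM against 5.22 to 31.5 CPM, Sox11 had 31.2 CPM beside 31.8 CPM in Tfap2a+/- library 1, and Cd24a had 8.15 CPM within the range of the rest. Fabp7 and Dcx lay 2.15-fold and 1.98-fold above their next library. No gene of the sensory neuron, ensheathing or neuroblast lists was called between genotypes.

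Most lists of other regions did not have their highest score in that library. The cortical glutamatergic list scored 0.037 there within -0.77 to 0.52, the striatal list 0.094 within -1.64 to 2.04, and the thalamic list -1.34, its lowest. The hippocampal list scored -0.95 and the cerebellar list -0.89, and the choroid plexus list scored -1.51. The neuron class list scored 0.030 and the glia class list -0.39. Within the latter, the myelin genes Mbp and Mobp had 1079 and 339 CPM, the second lowest of 9 libraries after Tfap2a+/- library 3 at 973 and 271 CPM. The photoreceptor and pineal list, with 2 tested genes, had its highest score in library 3 labelled Tfap2b+/-, at 0.409 beside 0.396 in wild type library 1. The hindbrain list, also with 2 tested genes, scored 0.558 there, second to 5.55 in library 1 of that label. The part of these lists in the levels of the 7 genes was not tested.

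**Figure D4:**
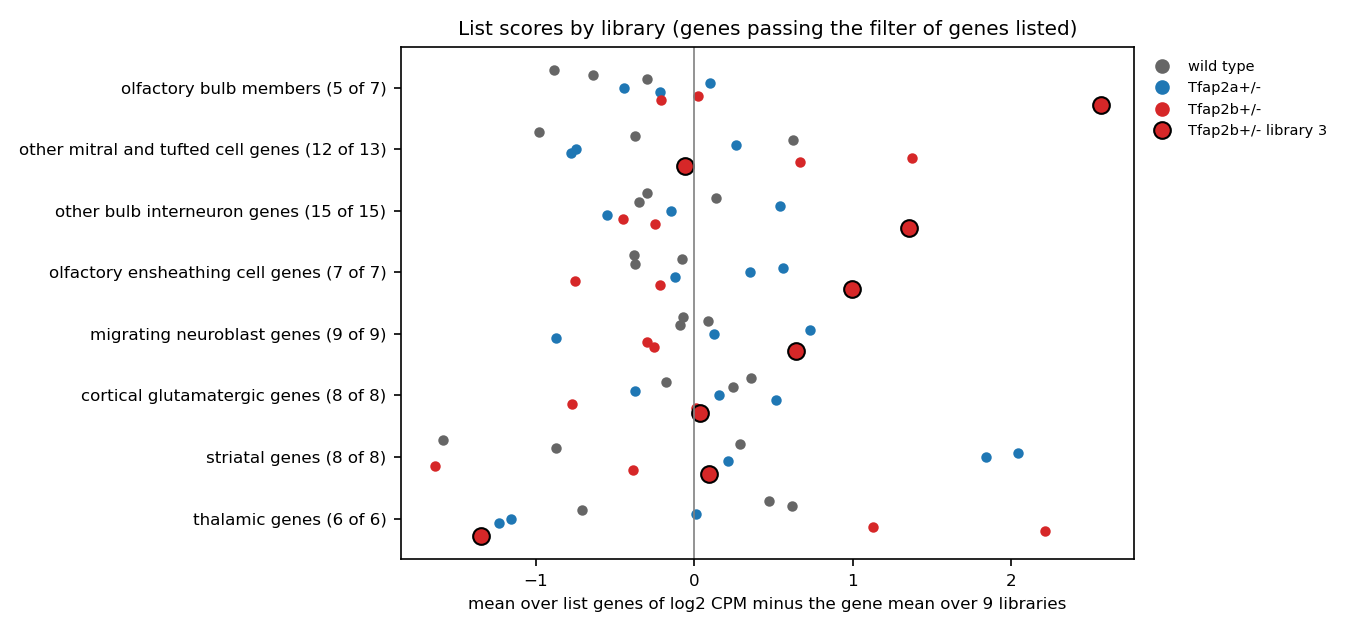
Score of each list (mean log2 CPM of its tested genes, each centred on its mean over 9 libraries) in each library, coloured by genotype label, with library 3 labelled Tfap2b+/- outlined. That library is farthest right for the 7 bulb genes (5 tested, 2.56), interneurons (1.35) and ensheathing glia (0.996), in the middle for other mitral and tufted genes (-0.055) and farthest left for thalamic genes (-1.34).

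The genes whose pattern over 9 libraries was most like the mean of the 5 tested genes were ranked by the root-mean-square difference of centred log2 CPM. The 10 closest were Itih2, 4930426D05Rik, Il13ra2, Slc22a2, Ndnf, Klhl14, Dct, Catspere2, Ly6g6e and Lgr5, with differences from 0.38 to 0.49 where the median gene had 0.98. Itih2 had 17.5 CPM in library 3 labelled Tfap2b+/- and 3.24 to 6.16 CPM elsewhere. Ndnf, a secreted neurotrophic factor, had 71.5 CPM against 18.7 to 28.8 CPM. Lgr5, a receptor for R-spondins, had 21.8 CPM against 2.68 to 11.0 CPM, and Dct, an enzyme of melanin synthesis, had 7.54 CPM against 0.322 to 0.741 CPM. When the likeness was measured over the 8 libraries without library 3, none of these 10 was among the 10 closest.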

How the data were processed

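Polyadenylated RNA of 9 brain libraries (3 genotypes, 3 libraries each) was sequenced as stranded read pairs, per the labels' protocols. The authors deposited whole-number counts per gene for each library. Tools named in the submitters' processing notes are cutadapt 2.4, STAR 2.6.1d and edgeR, with the build GRCm38.p6; no annotation release is stated. Reverse-strand counts were used, since the dUTP kit marks the strand; forward-strand counts made up 4.16% to 4.94% of stranded counts. Rows that name no gene held 15.5% to 19.7% of 26691820 to 36180085 fragments, with the highest shares in the libraries labelled Tfap2b+/-. These rows stayed out of library sizes and tests. Of 54446 gene identifiers, 54409 matched GENCODE M21 without version numbers. Reads shared by overlapping genes or at several positions are not counted.

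Genes were filtered with filterByExpr (minimum count 10, 17355 kept). The fit in edgeR 4.0.16 (R 4.3.3) used TMM factors, genotype as the only term, the quasi-likelihood F-test and Benjamini-Hochberg adjustment over all genes, called under 0.05. SE is the log2 fold divided by the square root of F. Scores used log2 CPM with a prior count of 2. Alternatives tried were DESeq2 1.42.0, edgeR with DESeq2 size factors, no filter, unstranded counts, a block for replicate numbers, only the genotypes compared, a robust fit, a prior count of 0.5 and each library left out. Scripts were tested on simulated counts. No pair of libraries within a genotype agreed within sampling noise (smallest chi-square per degree of freedom 20.6). Replicate numbers were not taken as pairs.

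The 7 genes and the lists were chosen with earlier results of these data known. Named were the 7 genes, up to 4 genes of highest mean CPM from lists of interest and markers at 0, the 10 genes of most similar pattern, and Tfap2a and Tfap2b; other names were picked on their values, which the text says. Promoter windows are from RefSeq. Protein sequences were not used here.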

Additional observations from a re-analysis of the deposited data

How the results depend on the processing

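The 5 tested genes kept their calls under every alternative except DESeq2, which called 1 of them, Shisa3, in Tfap2b+/- against wild type (log2 fold 2.69). The number of genes called, 0 in edgeR for each comparison, was 30 with DESeq2 and 2 with no filter for Tfap2a+/- against wild type, 175 with DESeq2 for Tfap2b+/- against wild type, and 228 with DESeq2 and 7 with no filter for Tfap2b+/- against Tfap2a+/-. With single libraries left out it ranged from 0 to 3, from 0 to 4 and from 0 to 31 in that order, and the highest value of the last 2 ranges came without library 3 labelled Tfap2b+/-. The highest of the first came without Tfap2a+/- library 2. The cause was not tested. Signs changed for Sp8 without library 3 labelled Tfap2b+/- (-0.60 against wild type and -1.43 against Tfap2a+/-, with highest values of 2.44 and 1.99 over the libraries left out), for Sp8 in Tfap2a+/- against wild type without Tfap2a+/- library 1 (-0.10, highest 1.24) and for Cdhr1 in the same comparison without wild type library 1 (-0.0080, highest 0.90). Unstranded counts gave 14.4 CPM in place of 16.5 CPM for Eomes in library 3 labelled Tfap2b+/-. Leaving that library out of the lists was added after seeing the data. With the replicate number as a block, 0 genes were called in each comparison, with smallest adjusted edgeR p-values of 0.550, 0.288 and 0.285. Same-numbered libraries of different genotypes had correlations of deviations from -0.35 to 0.34, and differently numbered ones from -0.39 to 0.37. The numbers were not taken as pairs, since no label says that equal numbers share a litter, batch or day. Counts of 1 to 8 for Eomes and 0 to 7 for Tbx21 in most libraries limit what can be said of both there.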

Other observations

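A search for genes that stood apart in each library, chosen after the data were seen, asked for a count of at least 10 and a level at least 4-fold above the highest of the other 8 libraries. Of 16966 genes with at least 10 counts in library 3 labelled Tfap2b+/-, it found 32, 23 of them protein-coding. Doc2g, Cdhr1, Eomes and Tbx21 were among the 32, with 3 further genes of the bulb lists. The search found 32 genes in library 1 of that label, 2 of them from the bulb lists, and 36 in wild type library 2. Each of the other 6 libraries gave 1 to 9. None of the 7 bulb genes was found in the other 8 libraries, where 16128 to 17485 genes were screened. The 7 genes and the lists were chosen with earlier results of these data known, so this overlap is no test. Ms4a15, a membrane-spanning protein, led in library 3 labelled Tfap2b+/- with 9.39 CPM and at most 0.137 CPM elsewhere. Frmd7, at rank 13 by fold, had 16.5 CPM there and at most 1.66 CPM elsewhere. In Tfap2a+/- library 1, where Eomes and Sp8 were second highest, the search named 9 genes. Ranks 1 and 2 by fold were the processed pseudogenes Gm13736 and Glns-ps1. Oxt, the oxytocin precursor, was at rank 3 with 3.35 CPM against at most 0.270 CPM. Lhx8, a factor of basal forebrain cholinergic neurons, was at rank 5 with 7.39 CPM against at most 1.07 CPM.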
